A study of Mus musculus with 18 samples.

Results

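The first step of differentiation under thalidomide was followed by setting 3 arrays of embryoid bodies exposed to the drug for 48 h against 3 arrays of embryoid bodies exposed for 24 h. These 6 arrays were taken by their labels from the 18 of the series. The cells were mouse embryonic stem cells of strain C57BL/6 that had been kept in a medium with leukemia inhibitory factor, BMP-4 and an inhibitor of GSK3b before they were aggregated. Per the labels' treatment protocol, 0.25 mM thalidomide or 0.25% DMSO, the vehicle, was added at the embryoid body stage on day 3. The same step in control cultures, from 3 arrays of 24 h to 3 of 48 h, was used as the background course and shared no array with the exposed one. The labels do not settle whether the controls received the vehicle, since the series description calls them unexposed, and in their source names the hours are counted from the formation of the embryoid bodies. A re-analysis tag stands in the titles of the exposed arrays of 24 h and of all controls, but not of the exposed arrays of 48 h. Tag and time therefore cannot be told apart in the exposed step, while both ends of the control step carry the tag. The labels call the arrays biological replicates without naming separate cultures, so p-values measure the spread between these samples.

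Embryoid bodies repeat the first decisions of the embryo. Pluripotent cells pass through an epiblast-like state, and under Nodal, Wnt and FGF signals a part of them takes on the identity of the primitive streak, where mesoderm and endoderm form. Streak genes are then switched off as nascent mesoderm becomes heart, vessel, limb and connective tissue precursors, a phase in which BMP signals rise. Cereblon, through which a ubiquitin ligase recognises its targets, is bound by thalidomide and can then be redirected to proteins such as the zinc finger factor SALL4. Whether this happens in these mouse cells was not measured. Thalidomide is a human teratogen, whereas rodents resist much of its effect on limbs.

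Signals are log2 values over 22180 genes, each represented by its brightest probe set. Array medians lay between 5.37 and 5.46, and replicates of a group correlated at 0.992 to 0.995 across genes. The first exposed replicate of 24 h stood somewhat apart from the other 2 arrays of its group, with the highest SD of its difference to them among the 12 arrays (0.214, others 0.168 to 0.195). In bulk samples such as these, fewer cells of a type and less RNA per cell cannot be told apart.

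From 24 h to 48 h of exposure, 19 of 29 measured primitive streak genes and 9 of 26 pluripotency genes fell. Among those that rose were 12 of 23 mesenchymal genes, 7 of 12 cardiac transcription factors and 9 of 18 genes of BMP signalling. At an adjusted p under 0.05 (limma, Benjamini-Hochberg over all genes), 1268 genes rose (5.72% of those tested) and 968 fell (4.36%). A change of at least 2-fold was reached by 128 of these 2236 genes, 96 up and 32 down. In 2213 of them the 3 arrays of 48 h all lay on one side of the 3 arrays of 24 h. A call at this threshold makes such a separation likely, so it is no separate support. The median change over all genes was -0.00071, which the normalisation of the arrays to one another sets near 0, so a shift common to most genes could not be seen.

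The control step moved largely the same genes. In controls 1536 genes rose (6.93%) and 1487 fell (6.7%), 221 of them at least 2-fold. Of the genes called, 1530 were called in both steps, which is 68.4% of the exposed calls and 50.6% of the control calls, and 1527 of them moved the same way. Because 1 spread per gene was estimated from all arrays, steady genes are more easily called in both steps. Of the 706 genes called in the exposed step alone, 622 (88.1%) had the same sign in controls. The share of all genes with the same sign in both steps was not counted. Across genes, which are not independent replicates, the steps correlated at Pearson r = 0.714 and Spearman rho = 0.508.

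**Figure D1:**
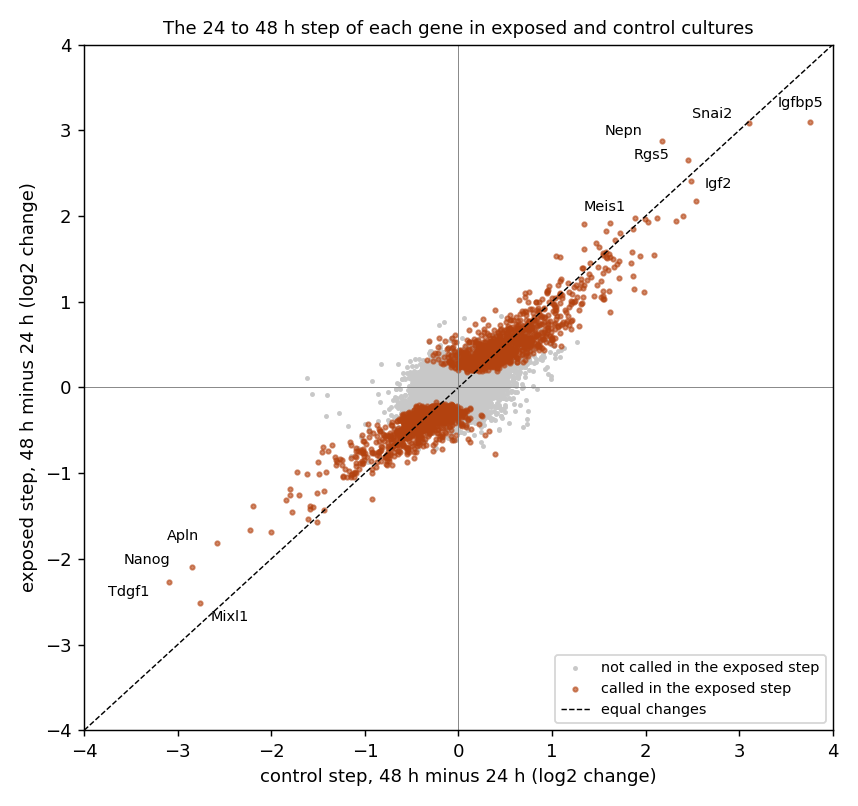
Each point is 1 gene, with its log2 change from 24 h to 48 h in control cultures on the horizontal axis and in exposed cultures on the vertical axis (22180 genes, 3 arrays per group). Genes called in the exposed step lie along the dashed line of equal changes, with Igfbp5 (3.10 against 3.76) and Tdgf1 (-2.27 against -3.09) nearer to 0 in the exposed cultures.

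A test of the difference asked whether the step differed between exposed and control cultures. It called 0 genes (0%) in limma, with a smallest adjusted p of 0.201, while 1701 genes had an unadjusted p under 0.05 where 1109 would by chance. No gene described here was therefore shown to move differently under the drug, and control changes are given beside the exposed ones for description.

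Among pluripotency genes the largest decrease was that of Tdgf1, the co-receptor through which Nodal signals in epiblast and early mesoderm. Its log2 signals were 10.39, 10.45 and 10.53 on the arrays of 24 h and 7.73, 8.43 and 8.39 on those of 48 h. All arrays of 48 h were lower, the first one the most, and the change was -2.27 ± 0.21 (SE; adjusted p = 3.98e-06), or 4.83-fold, against -3.09 in controls. Nanog, a core factor of the pluripotent state, read 8.53, 8.56 and 8.76 at 24 h and 6.41, 6.71 and 6.43 at 48 h. It was 4.28-fold lower without overlap of the groups, at -2.10 ± 0.25 (SE; adjusted p = 3.55e-05), against -2.85 in controls. Utf1, a chromatin factor of stem cells, fell by 1.31 on the log2 scale (adjusted p = 0.00106), against -1.84 in controls. The differences between the steps were 0.82, 0.75 and 0.53 for these 3 genes and did not pass (adjusted p of 0.532, 0.646 and 0.747).

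Of 26 measured genes of naive and core pluripotency, 9 fell (34.6%, against 4.36% of all genes), 0 rose and 17 did not pass. The median change was -0.11. Without the first exposed replicate of 24 h, 6 fell. Klf5, a Krüppel-like factor of the naive state, had a change of -0.67 (adjusted p = 0.000354). Pou5f1, which encodes OCT4, had one of -0.25 that did not pass (adjusted p = 0.102), against -0.74 in controls (adjusted p = 3.57e-05), and Sox2 one of 0.27 (adjusted p = 0.406). At 48 h of exposure their signals were 6.29 ± 0.16 and 8.37 ± 0.12 (SD, n = 3).

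The promoter of Nanog is shown because it carries the element through which OCT4 and SOX2 act together on many stem cell genes. The sequence is the 250 bases before the more upstream of its 2 starts in RefSeq (GRCm38.p6, chr6:122707239-122707488, plus strand), and capitals mark the match to TGCATNACA, searched on both strands, which begins 73 bases before the start.
Nanog promoter: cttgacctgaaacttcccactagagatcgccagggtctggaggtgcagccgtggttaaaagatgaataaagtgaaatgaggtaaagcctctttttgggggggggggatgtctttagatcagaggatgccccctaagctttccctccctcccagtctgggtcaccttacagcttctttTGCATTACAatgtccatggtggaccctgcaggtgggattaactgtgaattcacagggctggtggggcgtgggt
This motif occurred in 0.718% of 32851 promoter windows of the same length, and in 1 of the 6 listed promoters among the 9 pluripotency genes that fell. A match describes the letters only and was not tested as a site.

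Genes of primed epiblast, the state of the embryo just before gastrulation, were lower where they passed. Of 15 measured genes 7 fell (46.7%, against 4.36% of all genes) and 0 rose, with a median change of -0.39. Fgf5, a growth factor that marks this state, read 9.01, 9.07 and 9.23 at 24 h and 7.51, 7.90 and 7.73 at 48 h, a change of -1.39 ± 0.19 (SE; adjusted p = 0.000173). The groups did not overlap. Nodal itself had a change of -1.01 (adjusted p = 8.09e-05) and its secreted inhibitor Lefty2 one of -1.38 (adjusted p = 0.000112), against -2.20 for Lefty2 in controls (adjusted p of the difference 0.461). Zic2 and Zic5, zinc finger factors of epiblast and neural plate, had changes of -0.88 and -0.95. The methyltransferase gene Dnmt3b, which sets new DNA methylation in epiblast, had one of -0.77 (adjusted p = 5.44e-05), while the demethylation enzymes Tet2 and Tet3 rose by 0.48 and 0.59.

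The primitive streak list held the largest share of decreases. Of 29 measured members 19 fell (65.5%, against 4.36% of all genes), 0 rose, and the median change was -0.67. Counts ran from 15 to 19 when 1 exposed array was left out, and 15 fell, with a median of -0.52, without the first exposed replicate of 24 h. Mixl1, a homeobox factor of streak and endoderm precursors, had the largest decrease of the naming rule. Its signals were 10.05, 9.82 and 9.78 at 24 h and 6.87, 7.58 and 7.68 at 48 h, which is 5.70-fold lower (log2 change -2.51 ± 0.21, SE; adjusted p = 2.15e-06). Eomes, a T-box factor of streak and endoderm, went from 9.12, 9.14 and 8.99 to 7.17, 7.43 and 7.60, a change of -1.69 ± 0.19 (SE). Both genes were lower on every array of 48 h than on any of 24 h.

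Signals that maintain the streak fell with these factors. Wnt3, the ligand that starts streak formation, went from 7.85 ± 0.10 to 6.58 ± 0.11 (SD, n = 3; adjusted p = 5.45e-06), a change of -1.26 against -1.80 in controls. Fgf8, which moves cells out of the streak, had a change of -0.85, and the Wnt target Sp5 one of -0.76 against -1.46 in controls. Wnt8a had one of -0.67, against -1.35 in controls, which passed in 13 of 14 alternative settings. Apln, the ligand of a receptor on migrating mesoderm and vessel cells, read 7.82, 7.85 and 7.91 at 24 h and 5.72, 6.30 and 6.08 at 48 h (log2 change -1.82 ± 0.17, SE; adjusted p = 3.57e-06), against a change of -2.58 in controls (adjusted p of the difference 0.461). Lhx1, a factor of anterior streak and node, had a change of -1.26, Tbx6 and Mesp1, which specify paraxial and cardiac mesoderm, of -0.73 and -0.70, and Fst, an inhibitor of activin, of -1.53. Among canonical Wnt targets outside the streak, Rnf43 rose by 0.45 (adjusted p = 0.00173) and the stem cell receptor gene Lgr5 by 0.44. The call of Lgr5 passed in 7 of 14 alternative settings and was lost when any 1 of the exposed arrays but replicate 3 of 48 h was left out (0.406 to 0.455, adjusted p from 0.0612 to 0.0948).

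Olig2, a factor of motor neuron and glial precursors, and Ina, a neuronal intermediate filament gene, were also among the 12 largest decreases, at -1.45 and -1.43. In the list of neural progenitors, 3 of 16 genes rose (18.8%, against 5.72% of all genes) and 1 fell (6.25%, against 4.36%). Pax3, a factor of dorsal neural tube, crest and dermomyotome, rose by 1.00 and the adhesion gene Ncam1 by 0.84, whereas Sox1 and Pax6, the markers set for neural cells, had changes of 0.00 and 0.35 that did not pass (0.67 in controls for Sox1, which did not pass either). Rtl8c, a gene derived from a retrotransposon, had a change of -1.57, and Mup6, of the major urinary protein family, one of -1.66 against -2.23 in controls. Members of the Mup family are near-identical in sequence, so the probe set of Mup6 may not tell them apart.

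The largest rise was that of Igfbp5, a secreted protein that binds insulin-like growth factors and is made by early mesenchyme. Its signals were 6.10, 6.07 and 6.05 at 24 h and 9.18, 9.12 and 9.23 at 48 h, an 8.59-fold increase (log2 change 3.10 ± 0.09, SE; adjusted p = 1.83e-12). Igf2, the growth factor itself, went from 7.73, 7.41 and 7.17 to 10.04, 9.78 and 9.73 and was 5.33-fold higher (adjusted p = 2.25e-07). In both genes the groups were far apart compared with the spread within them.

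Of 10 measured genes of the insulin-like growth factor axis 5 rose (50%, against 5.72% of all genes), 2 fell (20%, against 4.36%) and 3 did not pass. The receptors Igf1r and Igf2r rose by 0.51 and 0.72. Among the binding proteins, Igfbp3 had a change of -0.81 (adjusted p = 4.40e-05) and Igfbp2 one of -0.33, a call lost without replicate 3 of 48 h (adjusted p = 0.0523). Igfbp4 rose by 0.48, which passed in 6 of 14 alternative settings and was lost whenever 1 exposed array was left out. Mest, which like Igf2 is expressed from the paternal allele in the embryo, rose by 1.24, from 9.28 ± 0.16 to 10.53 ± 0.11 (SD, n = 3).

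Mesenchymal genes rose as a group of 12 among 23 measured (52.2%, against 5.72% of all genes), 0 fell, and the median change was 0.40. Between 9 and 13 rose when 1 exposed array was left out. Snai2, a zinc finger repressor of epithelial genes, read 5.60, 5.92 and 5.96 at 24 h and 9.09, 8.65 and 8.97 at 48 h, an 8.43-fold increase (adjusted p = 2.57e-07). Every array of 48 h exceeded every array of 24 h. Pdgfrb, a growth factor receptor of pericytes and mesenchyme, rose by 1.69, Meox1, a somite factor, by 1.16, and the repressor Zeb1 by 0.92. Twist1 rose by 0.73, against 0.31 in controls, which did not pass there. Postn, a matrix protein, rose by 1.37 from a low signal of 3.78, and its call was lost in 5 of 13 alternative settings, among them the fits without replicate 1 (adjusted p = 0.0787) or 2 (adjusted p = 0.0886) of 24 h and without replicate 1 (adjusted p = 0.0877) or 3 (adjusted p = 0.0921) of 48 h. The collagen genes Col1a1 and Col3a1 had changes of 0.28 and 0.45 that did not pass.

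Other genes of the 12 largest rises belong to matrix, vessel wall and guidance. Nepn, a small leucine-rich proteoglycan, read 4.79, 4.26 and 4.52 at 24 h and 7.78, 7.15 and 7.28 at 48 h (7.36-fold), a change of 2.88 against 2.18 in controls. Rgs5, a regulator of G protein signalling found in pericytes, rose 6.27-fold. Hapln1, which links hyaluronan to proteoglycans, rose by 1.98, Frem1, a basement membrane protein, by 1.94, and Unc5c, a netrin receptor, by 1.93. Cpm, a membrane carboxypeptidase, and Capn6, a calpain without protease activity, rose by 2.17 and 2.00.

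**Figure D2:**
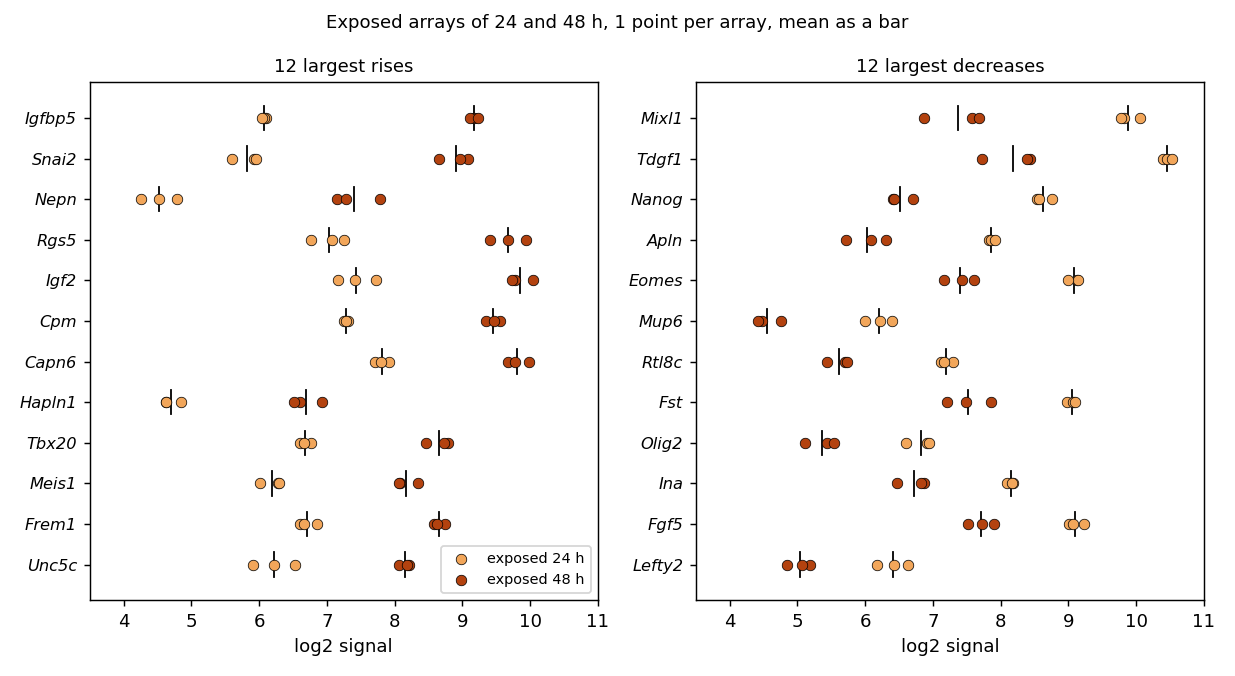
Points are the log2 signals of the 3 exposed arrays of 24 h (light) and the 3 of 48 h (dark) for the 12 genes with the largest rises and the 12 with the largest decreases under the naming rule, and bars are group means. In all 24 genes the points of 24 h and 48 h are separate, as the rule required, and the widest gaps are those of Igfbp5 (8.59-fold) and Snai2 (8.43-fold).

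Heart precursor factors rose, and most genes of the contractile apparatus did not pass the test. Of 12 measured cardiac transcription factors 7 rose (58.3%, against 5.72% of all genes) and 1 fell (8.33%, against 4.36%). The median change was 0.98. Tbx20, a T-box factor of the heart tube, read 6.76, 6.61 and 6.66 at 24 h and 8.79, 8.46 and 8.73 at 48 h, a 3.95-fold increase (adjusted p = 2.18e-06). Hand2 and Hand1, which pattern ventricles and limb, rose by 1.64 and 1.40. Isl1, a marker of the second heart field, rose by 1.52, Mef2c by 1.45 and the smooth and cardiac muscle coactivator Myocd by 1.19. Gata4 was the member that fell, by 0.31, and it passed in 7 of 14 alternative settings. Nkx2-5 and Tbx5 had changes of 0.12 and 0.11 that did not pass.

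Of 27 sarcomere and contraction genes 5 rose (18.5%, against 5.72% of all genes), 1 fell (3.7%, against 4.36%) and 21 did not pass. The median change was 0.20. Myh7, a myosin heavy chain of embryonic ventricle, rose by 1.17 (adjusted p = 0.00553) and the tropomyosin gene Tpm1 by 0.96 (adjusted p = 3.57e-06). Tnnt2, cardiac troponin T, went from 6.77, 6.69 and 6.65 to 8.14, 7.72 and 7.61. The first array of 48 h was the highest, and without it the rise was 0.962 and did not pass (adjusted p = 0.0808). Without replicate 3 of 24 h the adjusted p was 0.0508. The cardiac actin gene Actc1 and the atrial light chain gene Myl7 had changes of 0.69 (adjusted p = 0.234) and 0.33 (adjusted p = 0.604). Among 13 smooth muscle genes 2 rose (15.4%) and 1 fell (7.69%), the latter Smtn. The call of Smtn passed in 8 of 14 alternative settings. It was lost with the mean of probe sets, and without replicate 2 or 3 of 24 h or replicate 2 of 48 h. Acta2, smooth muscle actin, had a rise of 1.06 that passed in 8 of 14 alternative settings and was lost without any 1 of the exposed arrays except the first of 24 h (adjusted p from 0.0606 to 0.0991), and Tagln had a change of 0.17 that did not pass.

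BMP signalling, which drives ventral and extraembryonic mesoderm, rose at the level of ligands, targets and inhibitors. Of 18 measured genes 9 rose (50%, against 5.72% of all genes), 0 fell, and the median change was 0.40. Among ligands, Bmp4 went from 7.37, 7.48 and 6.95 to 9.11, 8.86 and 8.99 (3.30-fold; adjusted p = 4.27e-06), and Bmp5 rose 2.84-fold. Among direct targets, Id2, an inhibitor of helix-loop-helix factors, read 7.63, 7.60 and 7.72 at 24 h and 9.59, 9.44 and 9.47 at 48 h (3.60-fold; adjusted p = 1.37e-09). Id1 and Id3 rose by 1.04 and 0.86. Of the feedback inhibitors, Smad6 rose by 1.03 and Bambi by 0.54. Id2 rose by 1.87 in controls, a difference of -0.02 (95% interval -0.28 to 0.23, not adjusted).

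The promoter of Id2 is shown as that of the BMP target with the largest rise. The sequence is the 250 bases before its start in RefSeq (GRCm38.p6, chr12:25096093-25096342, minus strand, written 5′ to 3′ of the gene), and capitals mark GGCGCC, a GC-rich motif bound by BMP SMADs, which begins 231 bases before the start.
Id2 promoter: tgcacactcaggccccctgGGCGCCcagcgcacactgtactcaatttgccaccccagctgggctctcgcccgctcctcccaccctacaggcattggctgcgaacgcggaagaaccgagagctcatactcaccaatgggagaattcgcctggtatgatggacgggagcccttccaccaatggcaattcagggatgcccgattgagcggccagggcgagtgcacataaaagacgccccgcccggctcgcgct
GGCGCC, which reads the same on both strands, was found in 9.59% of the 32851 windows and in 2 of the 7 listed promoters among the 9 genes of the BMP list that rose, those of Id2 and Smad9. The windows of Id3 and Smad6 held no match, which says only that these letters are not in this window.

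FGF signalling changed in both directions. Of 23 measured genes 10 fell (43.5%, against 4.36% of all genes) and 4 rose (17.4%, against 5.72%), with a median of -0.27. Ligands and transcriptional targets of ERK were lower at 48 h: beside Fgf5 and Fgf8, Etv1 had a change of -0.87, Spry4, a feedback inhibitor, of -0.77, and the ERK phosphatase gene Dusp6 of -0.68. Receptors were among those that rose. Fgfr2 went from 6.12, 6.00 and 6.44 to 7.73, 7.45 and 7.55 (2.62-fold; adjusted p = 1.39e-05), and Fgfr3 rose by 0.70, which was lost without replicate 1 or 3 of 24 h or replicate 2 of 48 h (adjusted p from 0.055 to 0.0776). With 1 exposed array left out the counts were 7 to 9 down and 1 to 3 up.

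Of 18 Notch genes 6 fell (33.3%, against 4.36% of all genes) and 1 rose (5.56%, against 5.72%). Without replicate 1 of 24 h or replicate 1 of 48 h 3 fell, and without any other exposed array 4 or 5. Dll3, a ligand of presomitic mesoderm, had a change of -1.04 (adjusted p = 0.000227) and Jag2 of -0.63. In Nodal and TGF-beta signalling, 4 of 15 fell (26.7%) and 2 rose (13.3%). Only 1 rose without replicate 3 of 24 h or replicate 1 or 3 of 48 h. Tgfb2 rose by 1.53 while Nodal, Lefty2 and Tdgf1 were lower. In the retinoic acid list 5 of 13 rose (38.5%) and 1 fell (7.69%), and 3 rose without replicate 2 of 48 h. The receptor gene Rarb, itself a retinoic acid target, rose 2.31-fold, and the binding proteins Crabp1 and Crabp2 rose by 1.22 and 1.00. Cyp26a1, which degrades retinoic acid, had a change of -0.51 that passed in 9 of 14 alternative settings.

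Hox genes, which give cells their position along the body axis, rose in 11 of 36 measured members (30.6%, against 5.72% of all genes), and 0 fell. Without 1 exposed array 7 to 10 rose, with 7 without replicate 3 of 24 h or of 48 h, and 1 fell without replicate 2 of 48 h. Hoxc6 read 4.93, 4.99 and 5.05 at 24 h and 6.62, 6.32 and 6.63 at 48 h (2.90-fold; adjusted p = 1.59e-05), a change of 1.53 against 1.04 in controls. Hoxc8 and Hoxb9 rose by 0.94 and 0.93, and Hoxb4 by 0.62. Those that rose lie in all 4 Hox clusters, from Hoxd1 to Hoxb9, while the most posterior members Hoxa10, Hoxa13, Hoxb13, Hoxc10 to Hoxc13 and Hoxd10 to Hoxd13 had changes between -0.31 and 0.11 that did not pass. The mean signal of the list lay between 5.28 and 5.44 on the arrays of 24 h and between 5.65 and 5.69 on those of 48 h.

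Limb patterning genes, of interest for a drug that shortens limbs, rose in 6 of 18 members (33.3%, against 5.72% of all genes). A decrease passed in 1 (5.56%, against 4.36%). Meis1, a factor of proximal limb and blood precursors, went from 6.28, 6.29 and 6.02 to 8.35, 8.08 and 8.07 (3.92-fold; adjusted p = 2.25e-07) and rose by 1.99 in controls. The hedgehog receptor and target Ptch1 rose by 0.77 and Gli3 by 0.46. Fgf10, which starts the limb bud, had a change of -0.45, and Shh, Tbx4 and Tbx5 had changes of 0.06, -0.22 and 0.11 that did not pass.

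Crbn, which encodes cereblon, read 7.82, 8.13 and 8.13 at 24 h and 8.17, 7.93 and 8.10 at 48 h. The groups overlapped, and its change of 0.04 ± 0.09 (SE) did not pass (adjusted p = 0.876). Of 18 genes of the cereblon ligase and its substrates 5 rose (27.8%, against 5.72% of all genes) and 1 fell (5.56%, against 4.36%). Zbtb16, a zinc finger substrate with a role in limb patterning, went from 6.40, 6.50 and 6.39 to 7.87, 7.66 and 7.72 (2.50-fold; adjusted p = 4.58e-08) and rose by 1.40 in controls. Meis2, an endogenous substrate, rose by 1.11 and Ikzf2 by 1.03, against 0.75 and 1.56 in controls. Sall4 read 10.25, 10.06 and 10.05 at 24 h and 9.86, 9.91 and 9.87 at 48 h, a change of -0.24 (adjusted p = 0.0331). This call passed in 5 of 14 alternative settings and was lost without the first array of 24 h (-0.174, adjusted p = 0.142) or without replicate 1 (adjusted p = 0.098), 2 (adjusted p = 0.0577) or 3 (adjusted p = 0.0866) of 48 h. These are transcripts, and whether the drug acts on the proteins in these mouse cells was not measured.

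Of 8 genes that an earlier comparison of exposed with control arrays had singled out at 24 h, Sdhc, Dexi, Bod1, H2bc12 and Mrpl34 did not pass in this step. They were chosen on the same exposed arrays of 24 h, so this is a description. Sdhc, a subunit of succinate dehydrogenase, stood at 7.50 ± 0.08 and 7.36 ± 0.11 in exposed cells at 24 h and 48 h (SD, n = 3), against control means of 8.77 and 8.73. Dexi stood at 8.55 ± 0.13 and 8.52 ± 0.15, against 7.53 and 7.67. The other 3 of the 8 passed: Slc2a3, a glucose transporter, rose by 0.44 and the tight junction gene Cldn4 by 0.57, against 0.68 and 0.91 in controls. Bst2 had a change of -0.51 that passed in 7 of 14 alternative settings and in none of those that left out 1 exposed array (adjusted p from 0.0678 to 0.0975).

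Endoderm genes split. Foxa1, a pioneer factor of gut endoderm, and the keratin gene Krt19 rose by 0.68 and 0.80, and Sox17 and Foxa2 had changes of -0.31 (passed in 8 of 14 alternative settings) and -0.27 (in 7). The call of Sox17 was lost without any 1 of the exposed arrays except replicate 2 of 24 h (adjusted p from 0.0505 to 0.08). That of Foxa2 was lost without replicate 1 or 3 of either time (adjusted p from 0.0508 to 0.129). In the list of visceral and parietal endoderm, the tissues that wrap the embryo, 8 of 23 fell (34.8%, against 4.36% of all genes) and 0 rose. With 1 exposed array left out 4 or 5 fell. The list's mean signal was 7.91 to 8.01 at 24 h and 7.83 to 7.85 at 48 h. Its marker genes Afp, Ttr and Apoa1 had changes of 0.16, 0.35 and -0.07 that did not pass. Cubn, an endocytic receptor of visceral endoderm, read 10.64, 10.61 and 10.69 at 24 h and 10.17, 10.11 and 10.10 at 48 h (adjusted p = 0.0082).

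Basement membrane genes made up 4 of the 8. Lama1, the laminin chain of the first embryonic basement membrane, read 9.85, 9.92 and 10.11 at 24 h and 9.34, 9.36 and 9.35 at 48 h, a change of -0.61 ± 0.13 (SE; adjusted p = 0.00702), against -0.18 in controls. The exposed arrays of 24 h lay above all control arrays of 24 h, whose mean was 9.46 ± 0.07 (SD, n = 3), and at 48 h the means were 9.35 and 9.28. Lamc1 had a change of -0.42 against 0.02 in controls, Lamb1 of -0.32 against -0.19, and the collagen IV gene Col4a2 of -0.41 against -0.15. The differences between the steps were -0.43 for Lama1 (95% interval -0.84 to -0.03, not adjusted; adjusted p = 0.625) and -0.44 for Lamc1 (-0.78 to -0.09; adjusted p = 0.54), which did not pass. Lamc1 passed in the exposed step in 7 of 14 alternative settings and in none that left out 1 exposed array (adjusted p from 0.0517 to 0.101), Col4a2 in 5 and in none of those fits, and Lamb1 in 10, not without replicate 3 of 24 h or replicate 1 of 48 h (adjusted p of 0.0648 and 0.053).

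Epithelial keratins rose while cadherins did not pass. Krt18 went from 8.98 ± 0.10 to 10.03 ± 0.08 (SD, n = 3; 2.08-fold; adjusted p = 1.58e-07) and Krt8 rose by 0.76. Cdh1, E-cadherin, had a change of -0.17 that did not pass. These keratins are shared with trophoblast and endoderm. In the trophoblast list 0 of 10 measured genes fell and 4 rose (40%, against 5.72% of all genes), among them Krt18, Krt8 and Plac1. The trophoblast markers Elf5 and Tpbpa had changes of -0.10 and 0.19 that did not pass. Of 25 blood and endothelial genes 0 rose and 2 fell (8%, against 4.36% of all genes), Flt1 and Runx1. Runx1, at -0.26, passed in 7 of 13 alternative settings and was lost without replicate 2 of 24 h or replicate 1 or 3 of 48 h (adjusted p of 0.0923, 0.0728 and 0.0535). The blood markers Gata1 and Hbb-bh1 had changes of 0.15 and 0.19 and the endothelial markers Cdh5 and Pecam1 of 0.16 and 0.17, none of which passed. In the list of vessel signals 5 of 16 rose (31.2%, against 5.72% of all genes) and 2 fell (12.5%, against 4.36%). Nrp1, a receptor for VEGF and semaphorins, rose 2.94-fold, Vegfc 2.20-fold and Vegfa 1.61-fold, while the VEGF receptor gene Flt1 had a change of -0.53.

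**Figure D3:**
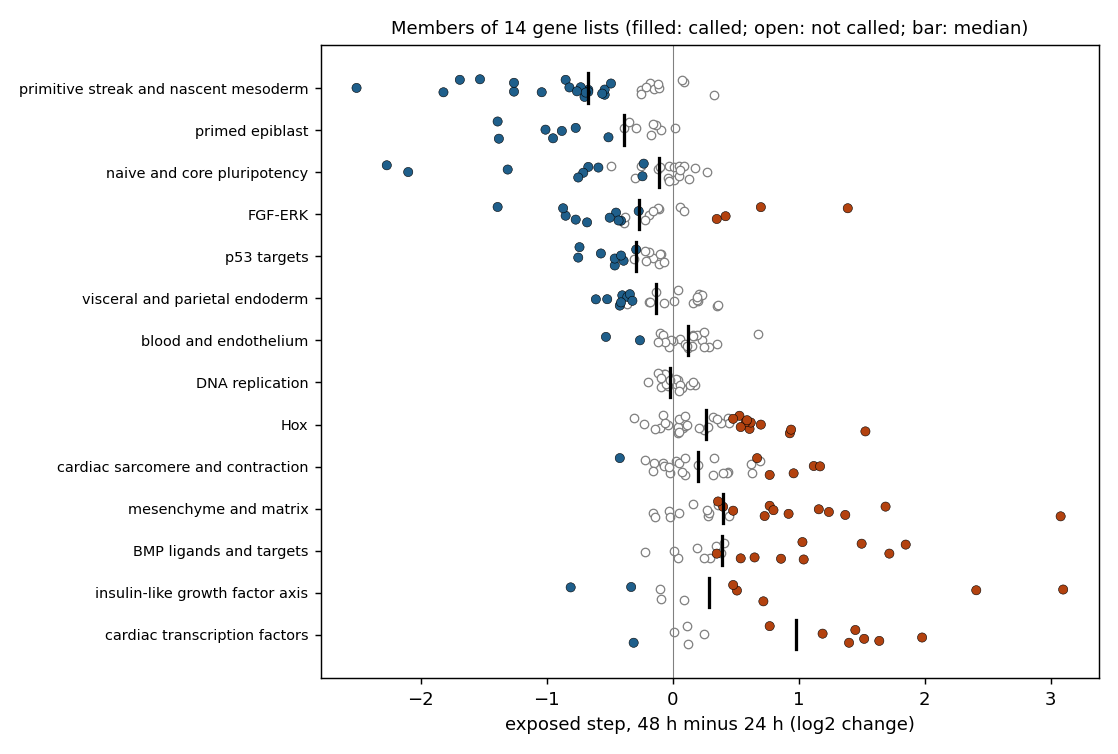
Points are the log2 changes from 24 h to 48 h of exposure of the members of 14 gene lists, filled where the adjusted p was under 0.05, and bars are list medians. The streak list sits lowest (median -0.67, 19 of 29 down), the cardiac transcription factors highest (median 0.98, 7 of 12 up), and DNA replication genes lie within 0.20 of 0.

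Genes of the p53 response fell where they passed. Of 17 measured p53 targets 8 fell and 0 rose, with a median of -0.29, and 7 or 8 fell when 1 exposed array was left out. Tnfrsf10b, a death receptor gene, went from 9.04, 9.11 and 9.19 to 8.46, 8.40 and 8.21 (adjusted p = 2.81e-05), and Pmaip1, a BH3-only cell death gene, from 8.24, 8.50 and 8.29 to 7.46, 7.68 and 7.66 (adjusted p = 3.14e-05). Cdkn1a, the p21 cell cycle inhibitor, and Mdm2, which targets p53 for degradation, had changes of -0.46 and -0.39. In the antioxidant list of NRF2, 4 of 18 fell, among them Hmox1 (-0.59) and Gclm (-0.43), and 2 fell without replicate 3 of 24 h or replicate 1 of 48 h. In the unfolded protein and integrated stress list, 4 of 20 fell and 1 rose, and in cholesterol synthesis 4 of 17 fell. With 1 exposed array left out, 2 or 3 fell in the former list (2 without replicate 2 or 3 of 24 h or replicate 1 or 2 of 48 h), and 2 to 4 in the latter (2 without replicate 3 of 24 h or replicate 2 or 3 of 48 h). The share of all genes that fell was 4.36%.

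Of 19 DNA replication genes 0 passed in limma, and of 20 mitotic genes 1 fell (5%, against 4.36% of all genes), Cdc20 at -0.26, a call held in 7 of 14 alternative settings and lost when any 1 exposed array but replicate 1 of 24 h was left out. Mcm10 had the smallest p of the replication list, with a change of -0.20 (adjusted p = 0.0534). Of 63 cytosolic ribosomal protein genes 2 fell (3.17%), with a median of 0.00, and 0 or 1 fell when 1 exposed array was left out. The shares of mitotic and ribosomal protein genes that fell were thus near that of all genes. In the list of glycolysis and hypoxia genes 3 of 18 rose (16.7%, against 5.72% of all genes) and 1 fell (5.56%, against 4.36%). The median change was 0.06. Those that rose were Slc2a1, at 0.49, Slc2a3 and Vegfa. Small nucleolar RNAs, short guides of ribosomal RNA modification, fell in 10 of 73 members (13.7%) with a median of -0.12, led by Snora75 at -0.68. Their mean signal was 8.74 to 8.99 on the exposed arrays of 24 h and 8.65 to 8.73 on those of 48 h, with the highest value on the first array of 24 h, and 8.54 to 8.62 on the controls of both times. Without that array 8 of 73 fell, with a median of -0.04, and without replicate 2 of 24 h 15 fell. Of 26 replication histones 4 rose (15.4%) and 3 fell (11.5%), and 2 rose without replicate 1 of 24 h. The mean signal of these histones was 6.67 to 6.80 at 24 h and 6.52 to 6.77 at 48 h. Their part in the other changes was not tested.

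The microRNA cluster of Mir302 and Mir367, which is expressed in some pluripotent cells, was added after its values were seen. Its 5 hairpins lie within 580 bases (RefSeq, GRCm38.p6, chr3:127545228-127545807, plus strand), so the probe sets read parts of 1 primary transcript or its products and are not independent. The mature strands that the table holds are shown with their seeds, bases 2 to 8, in capitals, since the seed sets which messages a microRNA binds.
miR-302b-3p: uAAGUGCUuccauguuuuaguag
miR-302d-3p: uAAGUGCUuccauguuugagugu
miR-302c-3p: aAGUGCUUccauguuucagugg
miR-367-3p: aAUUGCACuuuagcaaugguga
The first pair share the seed AAGUGCU, miR-302c-3p holds the same letters shifted by 1 base, and miR-367-3p has another seed. In exposed cultures Mir302a read 5.13, 5.76 and 6.07 at 24 h and 5.22, 5.27 and 5.56 at 48 h, and in controls 6.71, 6.61 and 6.90 at 24 h and 5.67, 5.19 and 5.52 at 48 h. The exposed groups overlapped, the control groups did not, and every exposed array of 24 h was below every control of 24 h.

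The other hairpins of the Mir302 family were also lower in exposed than in control cells at 24 h. Mir302b, Mir302c and Mir302d stood at 5.90 ± 0.75, 5.54 ± 0.55 and 5.30 ± 0.61 in exposed cells at 24 h, against 7.14 ± 0.29, 6.83 ± 0.16 and 6.70 ± 0.12 in controls (SD, n = 3). The control step was -1.28 for Mir302a, -1.57 for Mir302b, -1.42 for Mir302c, -1.62 for Mir302d and -1.41 for Mir367 (adjusted p from 0.000927 to 0.00574). The exposed step was -0.30, -0.07, -0.34, 0.10 and -0.08 in the same order, and none passed (adjusted p from 0.492 to 0.927). The difference was widest for Mir302d, at 1.73 (95% interval 0.87 to 2.58, not adjusted; unadjusted p = 0.000547), and did not pass for any of the 5 (adjusted p from 0.282 to 0.582). The first exposed array of 24 h was the lowest of its group in all 5. Without it the exposed steps were -0.56, -0.49, -0.66, -0.23 and -0.47, and the differences ran from 0.71 for Mir302a to 1.39 for Mir302d.

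Protein-coding genes with a small p of the difference included both streak and matrix genes. Igfbp5 rose by 3.10 in exposed and 3.76 in control cultures, a difference of -0.65 (95% interval -0.92 to -0.39, not adjusted; adjusted p = 0.201). Its level was 6.07 ± 0.02 in exposed and 5.76 ± 0.05 in control cells at 24 h and 9.18 ± 0.05 and 9.52 ± 0.07 at 48 h (SD, n = 3), so the exposed arrays started higher and ended lower. Loxl1, a crosslinker of elastin, rose by 0.48 against 1.10 (adjusted p of the difference 0.201). Sp5 stood at 7.13 ± 0.15 in exposed and 7.86 ± 0.08 in control cells at 24 h and at 6.37 ± 0.11 and 6.40 ± 0.15 at 48 h (SD, n = 3; adjusted p of the difference 0.22). The 6 genes with the smallest p were Gm16675, Olfr1218, Rps15, Kctd12b, Tldc2 and Mir30e, with differences of -0.57, -1.17, 0.92, -0.85, 0.66 and -1.16 and adjusted p-values of 0.201 each. Their group means were dim, between 3.30 and 5.69.

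**Figure D4:**
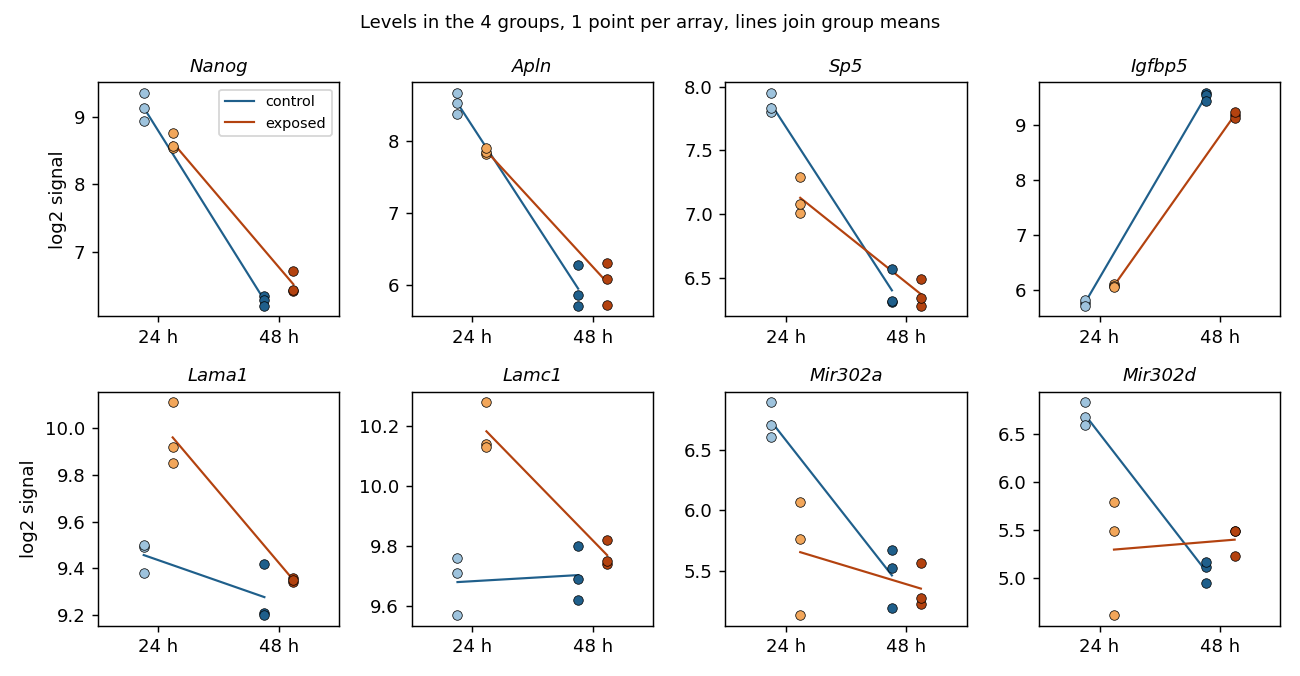
Points are log2 signals of single arrays at 24 h and 48 h in control (blue) and exposed (orange) cultures, with lines joining the means of 3 arrays, for 8 genes. Nanog, Apln and Sp5 start lower in exposed cells and end near the controls, Lama1 and Lamc1 start higher, and the exposed lines of Mir302a and Mir302d change by -0.30 and 0.10. The vertical axes differ between panels.

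As a summary over all genes, each array was placed on a line between the mean control profiles. That of 24 h lay at 0 and that of 48 h at 1. Each control array was placed on a line made without it, and exposed arrays on the line of all controls of these times. Exposed and control positions therefore come from unlike lines. Noise in the line can keep arrays from reaching 0 and 1, and its part here was not tested. The exposed arrays of 24 h lay at 0.140, 0.163 and 0.143 and the controls at 0.137, 0.123 and 0.184. At 48 h the exposed arrays lay at 0.856, 0.702 and 0.757 and the controls at 0.964, 0.879 and 0.759. The 24 h groups overlapped, and so did the 48 h groups, with means of 0.772 ± 0.078 for exposed and 0.867 ± 0.103 for control arrays (SD, n = 3). With the genes called in the control step alone, the mean positions at 24 h were 0.13 for exposed and 0.023 for control arrays, and at 48 h 0.866 and 0.984. With genes of median signal or more they were 0.115 and 0.0603 at 24 h and 0.888 and 0.955 at 48 h. The exposed means of 24 h thus lay above the control means in both subsets, unlike over all genes (0.148 in both groups). The genes called in the control step were chosen on the control arrays. No test was made: with 3 arrays in each group, the smallest p of an exact permutation test is 0.1.

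The lengths of both steps were also measured along the same lines, 9 lines that each left out 1 control array of 24 h and 1 of 48 h. These lines were made from control arrays alone, so a part of the exposed change in any other direction was not counted. The exposed step covered 0.567 of the line on average (0.539 to 0.593) and the control step, taken from the arrays left out, 0.731 (0.606 to 0.823). Along the control direction the exposed step was 77.6% as long, and shorter on 9 of 9 lines, which share arrays and are not replicates. Among control genes called at 2-fold or more, 195 of 221 had a smaller change in exposed cultures, while among exposed genes so called 40 of 128 had a smaller change in controls. Picking genes for a large change in one step favours a smaller change in the other. The part of this choice in either count was not tested.

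**Figure D5:**
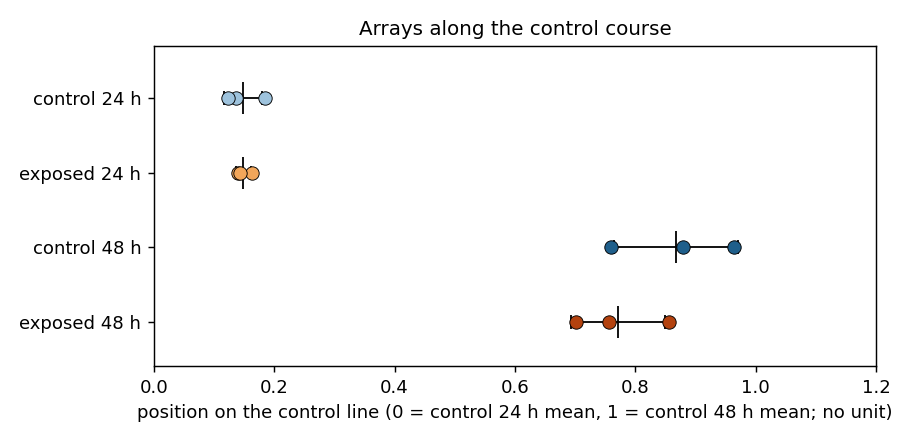
Points are single arrays by their position on the line between the control means of 24 h (0) and 48 h (1). Bars are group means and whiskers 1 SD over 3 arrays. Each control array was placed on a line made without it, exposed arrays on the line of all controls. Both groups of 24 h lie between 0.123 and 0.184, and the exposed arrays of 48 h, at 0.702 to 0.856, overlap the controls, at 0.759 to 0.964.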

How the data were processed

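Biotin-labelled total RNA was measured on Affymetrix arrays, 1 sample per array and 3 arrays per group. Per the submitters' processing notes, the authors used RMA with Affymetrix Expression Console 1.3, and they deposited log2 values. RMA makes the arrays' distributions nearly alike, so a change is read against all other probe sets, and detection values were not used. Precision is limited by the number of arrays.

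Of 41345 probe sets, 25335 were listed in a gene table made from the platform annotation. A single symbol was given for 23521 and several for 1814, which were left unnamed. Identifiers of 23328 matched RefSeq (GRCm38.p6). The brightest probe set stood for each of 1082 genes with several, leaving 22180 genes. limma 3.58.1 in R 4.3.3 fitted 1 mean per group over all 18 arrays (12 residual and 4.35 prior degrees of freedom), and was checked on simulated data. The contrasts were the exposed step, the control step and their difference, two-sided, adjusted by Benjamini-Hochberg within each contrast.

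Named genes were the 12 largest called rises and 12 largest called decreases without overlap of the arrays or predicted loci, up to 3 called members per list (or the smallest p), the 6 smallest p of the difference, Crbn, Sall4 and the 8 genes singled out at 24 h. Other list members and the Mir302 genes were named after their values were seen. Lists are described by counts and in part by medians. Some genes, such as Hand2 and Tdgf1, stand in several lists, so the counts of different lists are not separate results. The counts are to be read beside the shares of all genes called, 5.72% up and 4.36% down. The lists and the comparison were chosen with earlier results of these data known. Same-numbered arrays did not deviate together (correlations of -0.16, -0.0488 and -0.0628 between exposed 24 h and 48 h), so numbers were not taken as pairs. Alternatives were cyclic loess, a signal filter, probe set means, other variance models, array weights, a replicate block, all probe sets, subsets of arrays and leaving out each array.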

Additional observations from a re-analysis of the deposited data

How the results depend on the processing

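The number of genes called in the exposed step was 2236 and stayed within 1.5 times of it, from 2055 to 2809, under cyclic loess, the signal filter, probe set means, trend and robust eBayes, array weights, all probe sets and the replicate block. With the replicate block 2104 genes were called, 2024 of them among the 2236. It fell to 1141 with only the 6 exposed arrays and to 1402 with only the 9 exposed arrays in the fit, which have fewer degrees of freedom. Without 1 exposed array the count ran from 1541 to 1894. The control step gave 2026 to 3602 calls over its alternatives, 2026 to 2643 of them without 1 array, and the difference of the steps called 0 in every one (limma; 914 to 3084 features at an unadjusted p under 0.05, and 1514 to 1895 without 1 array). The exposed step along the control line was 0.623, 0.773 when only the brighter genes (median signal or more) were used, 0.736 with the genes called in the control step, and 0.581 to 0.658 without 1 exposed array. The control arrays moved as well in these subsets: their mean positions were 0.148 and 0.867 at 24 h and 48 h over all genes, 0.0603 and 0.955 with the brighter genes, and 0.023 and 0.984 with the genes called in the control step. The causes of these moves were not tested. Of 152 called genes recomputed, 115 passed in every alternative run, and none changed sign. List medians changed sign in 8 of 37 lists in at least 1 alternative.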
